A study of Drosophila melanogaster and Drosophila melanogaster x Drosophila simulans and Drosophila simulans with 6 samples.

Results

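The nuclear-encoded oxidative phosphorylation genes described here are 40 D. melanogaster genes for subunits of the respiratory chain, chosen by what they encode and not by their level. They comprise 8 genes of complex I, 4 of complex II, 7 of complex III, 9 of complex IV and 12 of complex V, out of 13973 D. melanogaster genes and 28229 genes of both species in the table. Their messages were measured in ovaries of hybrid females and of the maternal parent. The Hybrid group (2 libraries) held ovaries of F1 daughters of D. melanogaster Hmr2 females and D. simulans w501 males, and the Dmel_Hmr2 group (2 libraries) held ovaries of the D. melanogaster Hmr2 line itself. The X chromosome of that line bears the inversions In(1)w[m4] and In(1)AB with the alleles y[2] and Hmr[2]. Hybrid daughters carry this chromosome on their maternal side only, so the inversions and Hmr2 are present in both groups. Their other X chromosome comes from D. simulans w501, and Dmel_Hmr2 females have no such chromosome. This difference in the X goes with the groups throughout. Hmr is a gene of hybrid incompatibility, and Hmr2 is an allele that lets part of the hybrid females survive. Dsim_w501 ovaries (2 libraries), from the paternal parent, were used here only to measure reads of D. simulans that are assigned to D. melanogaster genes. Only hybrid ovaries with at least several ovarioles holding egg chambers were taken by the study, so the Hybrid libraries stand for the better developed hybrid ovaries. The ovaries came from adult females. The labels give no age and do not say whether replicates came from separate flies. The paper calls the replicates biological. It gives an age in days for hybrid females and for the females dissected for microscopy, but names none for these mRNA libraries.

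Oxidative phosphorylation takes place in the inner mitochondrial membrane. Complexes I and II pass electrons from NADH and from succinate to ubiquinone, complex III passes them on to cytochrome c, and complex IV hands them to oxygen. Complexes I, III and IV pump protons on the way, and complex V, the ATP synthase, lets the protons flow back to make ATP. Complex II is encoded wholly in the nucleus, while the other complexes combine nuclear subunits with subunits made from mitochondrial DNA. The mitochondrial genome comes from the mother, so a daughter of this cross joins D. melanogaster mitochondria to nuclear subunits of both species. In the Drosophila ovary, mitochondria multiply in the germline, and subunits of the ATP synthase are known to be needed for germ cells to differentiate. Genes on the mitochondrial DNA were not analysed here.

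Libraries held 13625547 to 19443493 estimated counts (reads divided among the transcripts they match) in Hybrid and Dmel_Hmr2 ovaries. D. melanogaster genes received 45.1% and 47.7% of the counts in Hybrid libraries, against 97.0% and 97.3% in Dmel_Hmr2 libraries. Hmr itself had 125 and 138 CPM in Hybrid, against 35.7 and 84.9 CPM in Dmel_Hmr2, where CPM is the normalised read count, scaled to the total on D. melanogaster genes with TMM factors (trimmed means of log ratios). Since Hmr2 is not a deletion, this level does not check the labels. Germline markers were plainly present, with the summed level of 10 listed genes at 5270 and 5424 CPM in Hybrid, against 5366 and 6087 CPM in Dmel_Hmr2. Follicle cell markers (10 genes) summed to 1323 and 1107 CPM in Hybrid, against 6348 and 4886 CPM in Dmel_Hmr2. Most of each sum came from the yolk protein genes Yp1, Yp2 and Yp3. Of this list Fas3 alone lay higher in Hybrid, at 57.8 and 46.7 CPM, against 45.8 and 38.4 CPM in Dmel_Hmr2. Muscle markers (15 genes) summed to 2136 and 1988 CPM in Hybrid, against 827 and 555 CPM in Dmel_Hmr2. Haemocyte markers (5 genes) summed to 91.7 and 99.8 CPM, against 24.7 and 14.2 CPM, with He at 0 in every one of these libraries. In these bulk samples, fewer cells of a type and less RNA per cell cannot be told apart, and the part of cell makeup in the results below was not tested.

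All 40 members were well above the minimum count, with 261 to 49250 estimated counts in any of the 4 libraries, and all were tested. Every one had a log2 fold change (Hybrid over Dmel_Hmr2) below 0, between -0.99 and -0.23, with a median of -0.67, which is 37.1% lower. Over the 8202 D. melanogaster genes tested the median was 0.00, and 49.8% lay below 0. None of the 40 was called at the study's rule of 2-fold and an adjusted p below 0.05, in either direction, against 10.3% of all tested genes called lower and 2.99% called higher. Without a minimum fold, 12 of 40 were called lower in Hybrid ovaries, against 15.0% of all tested genes, and none higher, against 6.8%. Below, a gene said to fall or rise is one called at an adjusted p below 0.05. At an unadjusted p below 0.05, 29 members were lower, against 23.6% of all tested genes, and none was higher, against 17.1%. Both Hybrid libraries lay below both Dmel_Hmr2 libraries in 38 of 40 members, against 37.2% of all tested genes. These fold changes are relative to other D. melanogaster genes, so the single D. melanogaster copy that a hybrid holds of each autosomal and X-linked gene does not appear as a change.

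**Figure D1:**
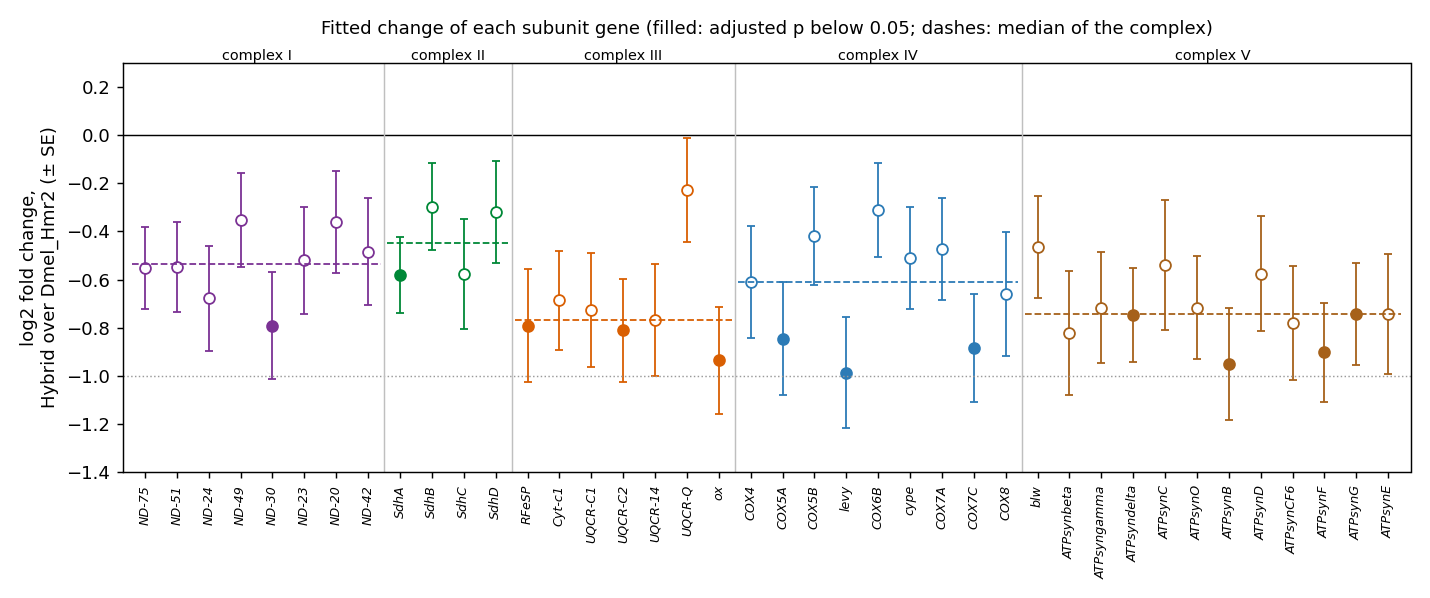
Log2 fold change (Hybrid over Dmel_Hmr2, vertical axis) of each of the 40 subunit genes, with bars of 1 standard error, ordered by complex. Filled points have an adjusted p below 0.05 (12 genes), dashes give the median of each complex, the dotted line marks a 2-fold decrease, and all points lie between -0.99 and -0.23.

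The size of the change depended on which Dmel_Hmr2 library was used. Replicate 1 was above replicate 2 in all 40 members, against 51.9% of all tested genes, by 0.09 to 0.80 on the log2 scale (median 0.58). The Hybrid libraries differed from each other by only -0.26 to 0.23 in the same members (median -0.04). Without Dmel_Hmr2 replicate 1 the median of the members was -0.36, 39 of 40 lay below 0, against 50.2% of tested genes, and 24 were called lower without a minimum fold, against 20.4%. Without Dmel_Hmr2 replicate 2 the median was -0.96, all 40 were called lower, against 31.7% of tested genes. Without Hybrid replicate 1 the median was -0.64 and 1 member was called lower, against 7.59% of tested genes. Without Hybrid replicate 2 it was -0.69 and none was called, against 6.66%. The direction of the median thus held in each of these fits, and the number of calls did not.

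**Figure D2:**
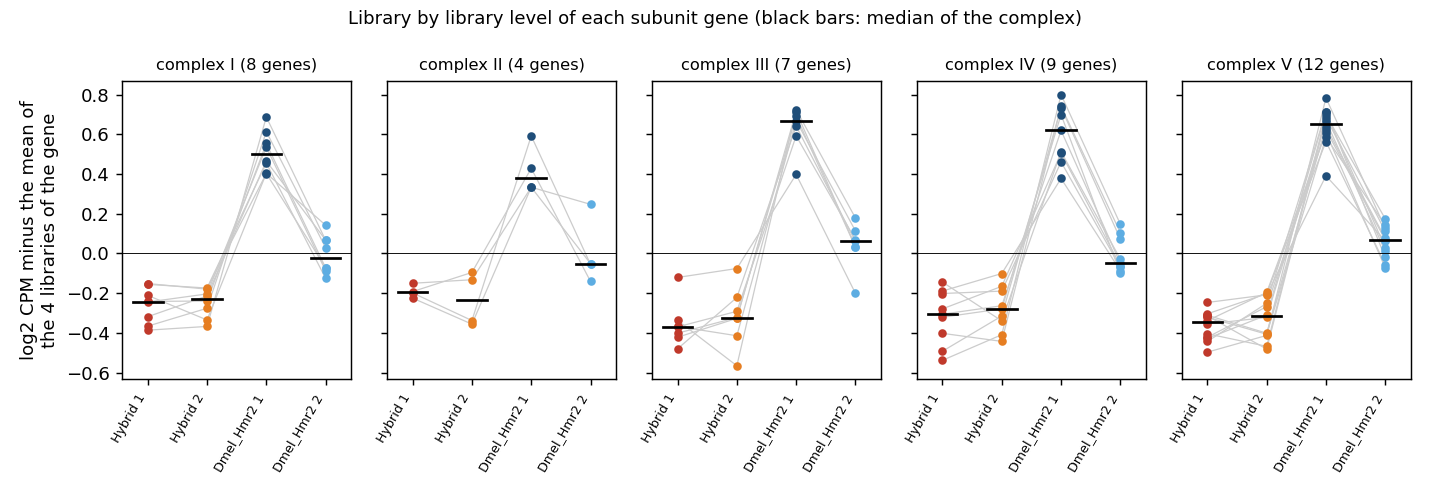
Level of each member in each library, as log2 CPM minus the mean of the 4 libraries of the same gene (vertical axis), in a panel per complex with Hybrid libraries on the left. Black bars are medians over the complex, and grey lines join the 4 values of a gene. Both Hybrid libraries sit together, while Dmel_Hmr2 replicate 1 sits above Dmel_Hmr2 replicate 2 in all 40 genes.

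Complex I takes electrons from NADH. Its 8 members had log2 fold changes between -0.79 and -0.35 (median -0.53). In complex I 1 of 8 fell (12.5%), which is near the 15.0% of all tested genes called lower. That gene was ND-30, a core subunit of the quinone-reducing module (Dmel_CG12079, chromosome 3L, 3158485 to 3159578, minus strand, 3 exons, Release 6 assembly). ND-30 had 75.1 and 76.1 CPM in Hybrid, against 159 and 103 CPM in Dmel_Hmr2, a log2 fold change of -0.79 ± 0.22 (SE, adjusted p = 0.041), and its call was lost with the trend with transcript length removed (adjusted p = 0.061). The smallest difference was that of ND-49, another core subunit of the same module (Dmel_CG1970, chromosome 4, 568296 to 571554, minus strand). ND-49 had 134 and 131 CPM in Hybrid, against 197 and 141 CPM in Dmel_Hmr2, and its log2 fold change of -0.35 ± 0.19 did not pass (adjusted p = 0.21). The Hybrid values of ND-49 thus lay close under the lower Dmel_Hmr2 library. The 3 subunits of the NADH-oxidising module (ND-75, ND-51 and ND-24) had a median of -0.55, and the 4 of the quinone-reducing module (ND-49, ND-30, ND-23 and ND-20) a median of -0.44.

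Complex II, succinate dehydrogenase, is also an enzyme of the TCA cycle. Its 4 members had the smallest median of the 5 complexes, -0.45, with values between -0.58 and -0.30. SdhA, the flavoprotein that oxidises succinate (Dmel_CG17246, chromosome 2R, 19391863 to 19395971, minus strand), was the only member of the complex called lower (1 of 4, against 15.0% of all tested genes). SdhC, which was not called, stood at nearly the same value, -0.58 ± 0.23 (adjusted p = 0.10). SdhA had 189 and 172 CPM in Hybrid, against 278 and 262 CPM in Dmel_Hmr2, a log2 fold change of -0.58 ± 0.16 (SE, adjusted p = 0.039). It had the longest transcript of the 40 members, and its Dmel_Hmr2 libraries differed least among them. SdhB, the iron-sulfur subunit (Dmel_CG3283, chromosome 2R, 6807626 to 6809172, plus strand), had 94.6 and 95.8 CPM in Hybrid, against 132 and 101 CPM in Dmel_Hmr2. Its log2 fold change of -0.30 ± 0.18 did not pass (adjusted p = 0.24), and 10.6% of its exonic bases lie opposite another gene. Groups overlapped for SdhD, a membrane anchor, with 59.6 and 63.7 CPM in Hybrid, against 91.9 and 61.7 CPM in Dmel_Hmr2.

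Complex III had the lowest median, -0.77, and the widest range, from -0.94 to -0.23. Of its 7 members, 3 fell, against 15.0% of all tested genes. They were ox, UQCR-C2 and RFeSP, of which UQCR-C2 alone kept its call with the length trend removed. The gene ox encodes a small accessory subunit (Dmel_CG8764, chromosome 2R, 12757133 to 12757529, minus strand). Its level was 36.1 and 30.7 CPM in Hybrid, against 75.9 and 51.8 CPM in Dmel_Hmr2, a log2 fold change of -0.94 ± 0.22 (SE, adjusted p = 0.025), and 12.4% of its exonic bases lie opposite another gene. UQCR-C2, a core protein, had a log2 fold change of -0.81 ± 0.21 (adjusted p = 0.035), and RFeSP, the Rieske iron-sulfur protein, -0.79 ± 0.24 (adjusted p = 0.0498). For RFeSP 13.2% of exonic bases lie opposite another gene. UQCR-Q, a small accessory subunit (Dmel_CG7580, chromosome 3L, 17474761 to 17476124, plus strand), had the smallest difference of all members as counted, though not with D. simulans reads subtracted, where it was -0.37 and SdhB was -0.26. UQCR-Q had 124 and 128 CPM in Hybrid, against 178 and 117 CPM in Dmel_Hmr2, and its log2 fold change of -0.23 ± 0.22 did not pass (adjusted p = 0.45). The groups overlapped for this gene, and without Dmel_Hmr2 replicate 1 its log2 fold change was 0.10. UQCR-14 lies entirely opposite another gene, CG32576, so its reads may include those of its partner. The core proteins and electron carriers (RFeSP, Cyt-c1, UQCR-C1 and UQCR-C2) lay close together, between -0.81 and -0.69.

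Complex IV, cytochrome c oxidase, gave a median of -0.61, and 3 of its 9 members fell, against 15.0% of all tested genes. With the length trend removed none of the 9 was called and the median was -0.01, against 0.14 for all tested genes. Its members lay between -0.99 and -0.31. The lowest value of all 40 members as counted was that of levy (with D. simulans reads subtracted, COX5B was lowest, at -1.12, and levy stood at -0.96). The gene levy encodes subunit 6A (Dmel_CG17280, chromosome 2R, 23548239 to 23548982, plus strand). The level of levy was 120 and 132 CPM in Hybrid, against 305 and 194 CPM in Dmel_Hmr2, a log2 fold change of -0.99 ± 0.23 (SE, adjusted p = 0.025). COX7C, a small membrane subunit with 15.7% of its exonic bases opposite another gene, had -0.88 ± 0.23 (adjusted p = 0.032), and COX5A had -0.85 ± 0.24 (adjusted p = 0.041). At the other end stood COX6B, which faces the intermembrane space (Dmel_CG14235, chromosome X, 19740537 to 19744335, minus strand). COX6B had 154 and 163 CPM in Hybrid, against 228 and 165 CPM in Dmel_Hmr2, and its log2 fold change of -0.31 ± 0.20 did not pass (adjusted p = 0.26).

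Complex V, the ATP synthase, had a median of -0.74, and 4 of its 12 members fell, against 15.0% of all tested genes. The 4 belong to different parts of the enzyme, with ATPsynB in the peripheral stalk, ATPsyndelta in the central stalk, and ATPsynF and ATPsynG in the membrane part. With the length trend removed ATPsynB alone of these was called. ATPsynB (Dmel_CG8189, chromosome 3L, 9729999 to 9731224, plus strand) had 134 and 142 CPM in Hybrid, against 327 and 207 CPM in Dmel_Hmr2. Its log2 fold change was -0.95 ± 0.23 (SE, adjusted p = 0.028). ATPsynF had -0.90 ± 0.20 (adjusted p = 0.023), ATPsyndelta -0.75 ± 0.19 (adjusted p = 0.034) and ATPsynG -0.74 ± 0.21 (adjusted p = 0.044). For ATPsyndelta 35.6% of exonic bases lie opposite another gene. The smallest difference was that of blw, the alpha subunit of the F1 head (Dmel_CG3612, chromosome 2R, 22799099 to 22802180, plus strand). The level of blw was 908 and 933 CPM in Hybrid, against 1413 and 1127 CPM in Dmel_Hmr2, and its log2 fold change of -0.46 ± 0.21 did not pass (adjusted p = 0.14). ATPsynbeta, which encodes the beta subunit of the same head, had -0.82 ± 0.26 (adjusted p = 0.056). By position in the enzyme the medians were close together, at -0.73 for the head and central stalk, -0.75 for the peripheral stalk and -0.74 for the membrane part.

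Levels of different genes were compared per length, in the deposited TPM. Transcripts outside the listed genes took 28.3% and 32.5% of TPM in Hybrid, against 23.6% and 42.5% in Dmel_Hmr2. The TPM of a gene in different libraries thus also depends on that share. All 40 members were highly expressed, each above at least 86.6% of tested genes in Dmel_Hmr2. The highest in every library was ATPsynC, subunit c of the proton-driven ring, with 985 and 1071 TPM in Hybrid, against 2610 and 1561 TPM in Dmel_Hmr2. ATPsynbeta followed, with 431 and 382 TPM in Hybrid, against 1219 and 787 TPM in Dmel_Hmr2. The lowest was ND-24 in both Hybrid libraries, at 33.8 and 35.9 TPM, against 95.1 and 60.8 TPM in Dmel_Hmr2, where SdhA was lower still in replicate 1 (91.3 TPM). The order of the members was alike in both groups, with a Spearman correlation of 0.97 between mean TPM in Hybrid and in Dmel_Hmr2 across the 40 genes, which are not independent replicates. Complex V made up 51.6% and 52.0% of the summed TPM of the members in Hybrid, against 52.3% and 51.9% in Dmel_Hmr2. Complex IV made up 24.1% and 24.1%, against 24.9% and 24.4%, and complex III 13.4% and 13.4%, against 13.5% and 13.6%. For complex I the shares were 7.20% and 7.05% in Hybrid, against 6.40% and 6.72% in Dmel_Hmr2, and for complex II 3.69% and 3.47%, against 2.98% and 3.33%. No test was run on these shares.

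**Figure D3:**
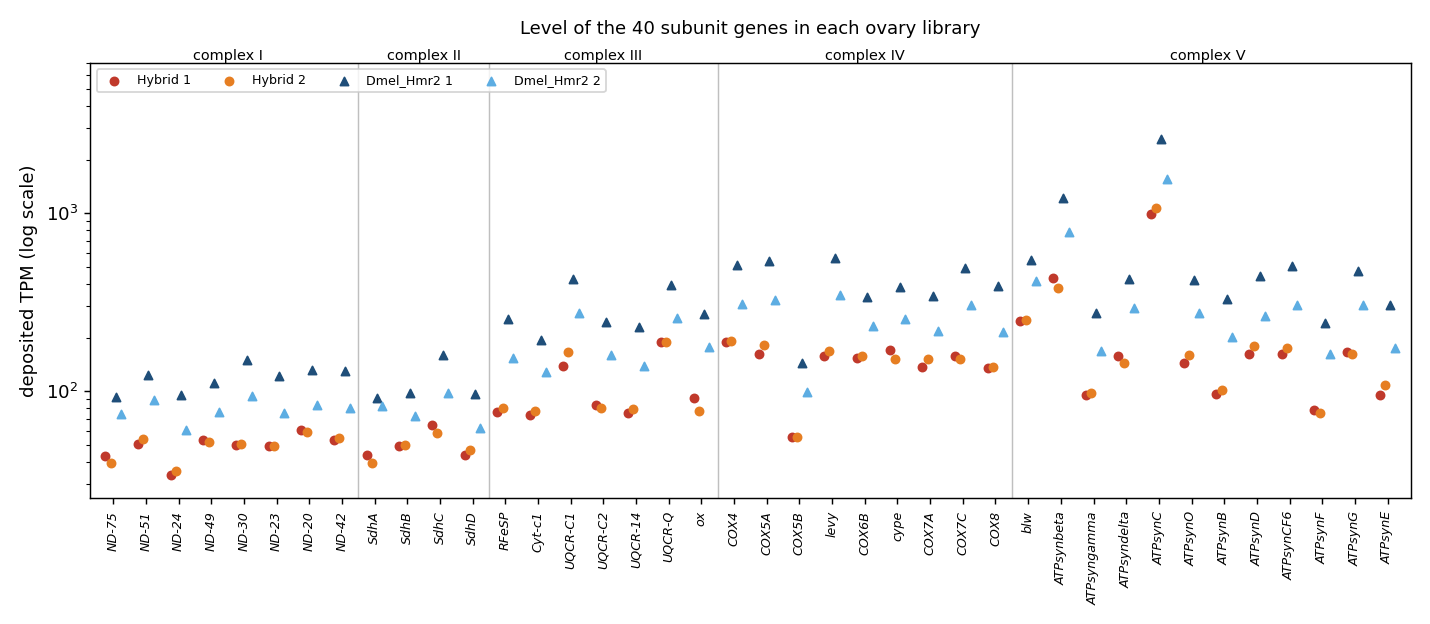
Deposited TPM (log axis) of the 40 members in the 2 Hybrid libraries (circles) and the 2 Dmel_Hmr2 libraries (triangles), grouped by complex. ATPsynC is highest in each library, between 985 and 2610 TPM, and both Hybrid points lie below both Dmel_Hmr2 points for all 40 genes on this scale, which counts transcripts of both species.

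That TPM scale is set over transcripts of both species, those outside the listed genes included. On it both Hybrid libraries were below both Dmel_Hmr2 libraries for all 40 members, against 67.4% of all tested genes. The ratio of mean TPM, Hybrid over Dmel_Hmr2, had a median of 0.452 over the members (0.357 to 0.582) and of 0.719 over all tested genes. Taken as a share of the TPM of D. melanogaster genes alone, the members made up 1.64% and 1.69% in Hybrid, against 2.03% and 1.70% in Dmel_Hmr2. As a share of estimated counts they made up 0.869% and 0.869% in Hybrid, against 1.40% and 1.02% in Dmel_Hmr2. The Hybrid shares were thus close to that of Dmel_Hmr2 replicate 2 in TPM and below both Dmel_Hmr2 libraries in counts.

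Most members have short transcripts, and the fold change of all genes moved with transcript length. Of the 40 members, 29 had a deposited length below 1000 bases (median over all 40, 712 bases). The log2 fold change rose with length across the 8202 tested genes (Spearman 0.33, genes not being independent), and the difference between Dmel_Hmr2 replicates 1 and 2 decreased with it (Spearman -0.46). Below 500 bases, 11 members had a median of -0.77, against -0.59 for 379 other genes and -0.93 for the 78 of these that were at least as highly expressed as the lowest member. Between 500 and 1000 bases, 18 members had a median of -0.59, against -0.34 for 1253 other genes and -0.44 for the 360 at that level. Between 1000 and 1500 bases the median was -0.55 for 7 members, against -0.09 for 1508 other genes and -0.09 for the 631 at that level. Between 1500 and 2500 bases it was -0.55 for 3 members (ND-75, blw and ATPsynbeta), against 0.07 for 2254 other genes and 0.10 for the 1291 at that level. Above 2500 bases SdhA alone had -0.58, against 0.26 for 2768 other genes and 0.31 for the 1837 at that level. Below 500 bases the median of the members thus lay between those of other genes at any level and at the level of the members, while in each longer class it lay below both.

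With the trend with length removed from each library, an alternative added after the data were seen, the median of the members was -0.24 and that of all tested genes 0.14. Under it, 33 of 40 members lay below 0, against 39.8% of tested genes, and 4 were called lower, against 14.5% of tested genes. These were ND-75 (-0.56, adjusted p = 0.032), SdhA (-0.59, adjusted p = 0.017), UQCR-C2 (-0.57, adjusted p = 0.036) and ATPsynB (-0.54, adjusted p = 0.035). The median of complex IV was then -0.01 and that of complex II -0.05, against -0.24 for complex I, -0.42 for complex III and -0.27 for complex V. No member was called higher, against 1521 of the 8202 tested genes in this fit, and UQCR-Q (0.38, adjusted p = 0.091) had the highest value.

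**Figure D4:**
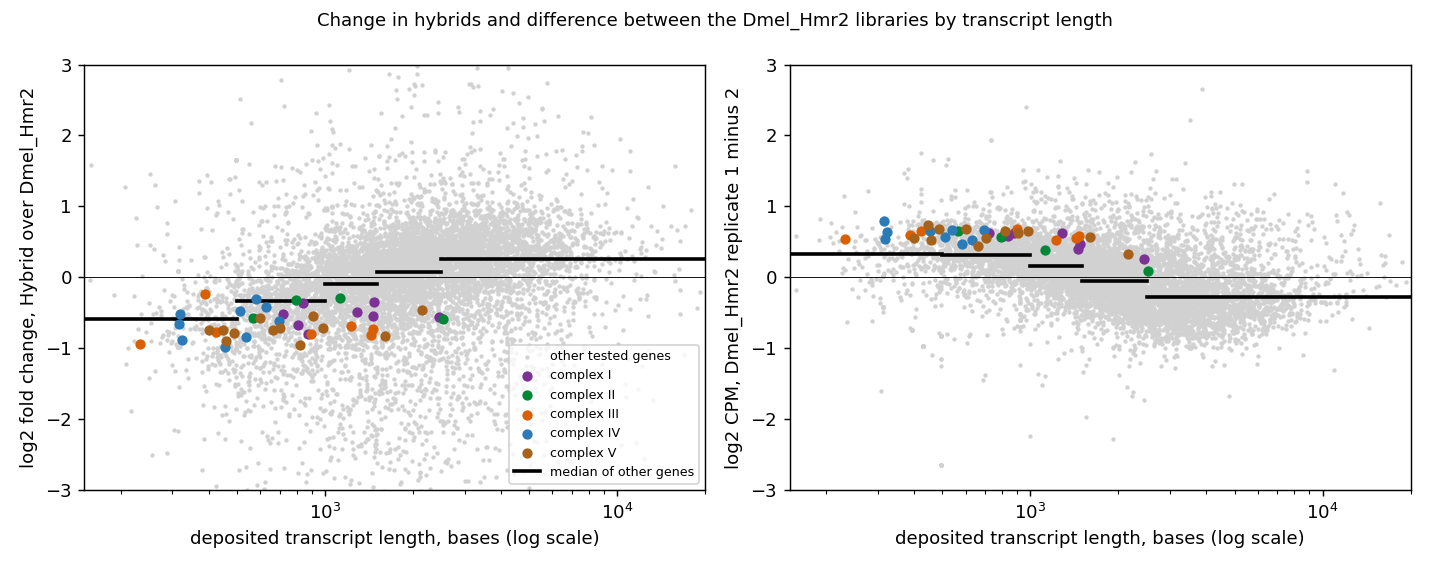
Log2 fold change, Hybrid over Dmel_Hmr2 (left), and log2 CPM of Dmel_Hmr2 replicate 1 minus replicate 2 (right), against deposited transcript length in bases (log axis), for all tested genes (grey) and the members (coloured by complex). Black bars are medians of the other genes in 5 classes of length, from -0.59 in the shortest class to 0.26 in the longest on the left, and from 0.33 to -0.27 on the right. The axes leave out 147 genes on the left and 14 on the right.

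Reads of D. simulans origin touched a few members. In Dsim_w501 libraries, which hold no D. melanogaster RNA, the median member was listed at 0.590 and 0.478 TPM. COX5B, the zinc-binding subunit of complex IV, was highest with 27.5 and 38.2 TPM (271 and 482 estimated counts). If D. simulans reads were placed in hybrids at the same rate, they would make up 42.0% and 38.3% of the COX5B counts in Hybrid. The same share was 13.3% for COX6B, 11.6% for UQCR-Q, 10.6% for RFeSP and 6.83% for SdhD, as means of both Hybrid libraries, and it was under 1% for 31 members. COX5B had 59.46 and 59.96 CPM in Hybrid, against 94.4 and 65.2 CPM in Dmel_Hmr2, a log2 fold change of -0.42 ± 0.20 that did not pass (adjusted p = 0.16). With the expected wrongly assigned reads subtracted, its log2 fold change was -1.12 (adjusted p = 0.013), the only member then called at 2-fold, where 10.4% of tested genes were called lower. RFeSP then stood at -0.91, COX6B at -0.48 and UQCR-Q at -0.37, and 12 members were called lower without a minimum fold, against 15.1% of tested genes. COX5B gained a call there and ATPsynG lost its own (adjusted p = 0.052). COX5B and SdhD were singled out here after their values were seen.

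Other genes of mitochondrial respiration were compared list by list, and each count called lower stands against 15.0% of all tested genes. Of 29 further subunit genes of complexes I, III and IV, 28 were tested, all 28 lay below 0 (median -0.64), 10 fell and none rose. ND-AGGG, an accessory subunit of complex I, was the only one past 2-fold, with 62.1 and 50.8 CPM in Hybrid, against 137 and 111 CPM in Dmel_Hmr2 (log2 fold change -1.14 ± 0.19, adjusted p = 0.0079). Among 13 assembly factors the median was -0.42 and 1 fell, Bcs1, which is needed to insert the Rieske protein into complex III (-0.80 ± 0.23, adjusted p = 0.045). Of the 8 genes for cytochrome c, adenine nucleotide translocase, porin and phosphate carriers, 7 were tested, with a median of -0.67. Among them 1 fell, the cytochrome c gene Cyt-c-p (-0.77 ± 0.21, adjusted p = 0.038). These counts of 1 in 13 and 1 in 7 are below and near that share. Enzymes of the TCA cycle (14 tested of 15) had a median of -0.35, and 5 fell, kdn, Scsalpha1, ScsbetaG, Fum1 and Mdh2, between -0.78 and -0.62. Of 14 genes for mitochondrial gene expression and its nuclear regulators, 7 lay below 0 (median -0.11) and 3 fell, with none rising. They were PolG2, the accessory subunit of the mitochondrial DNA polymerase (3.10 and 4.24 CPM in Hybrid, against 14.9 and 9.98 CPM in Dmel_Hmr2, log2 fold change -1.76 ± 0.34, adjusted p = 0.013), bsf, an RNA-binding protein of mitochondria (-0.90 ± 0.15, adjusted p = 0.0090), and mtSSB, which binds single-stranded mitochondrial DNA (-0.68 ± 0.20, adjusted p = 0.044). Apart from ND-AGGG and PolG2, the genes named in these lists were chosen after their values were seen. With the trend with length removed, the medians were -0.12 for the further subunits, -0.07 for assembly factors and -0.41 for carriers. They were -0.24 for TCA cycle enzymes and -0.06 for expression and regulators, against 0.14 for all tested genes.

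**Figure D5:**
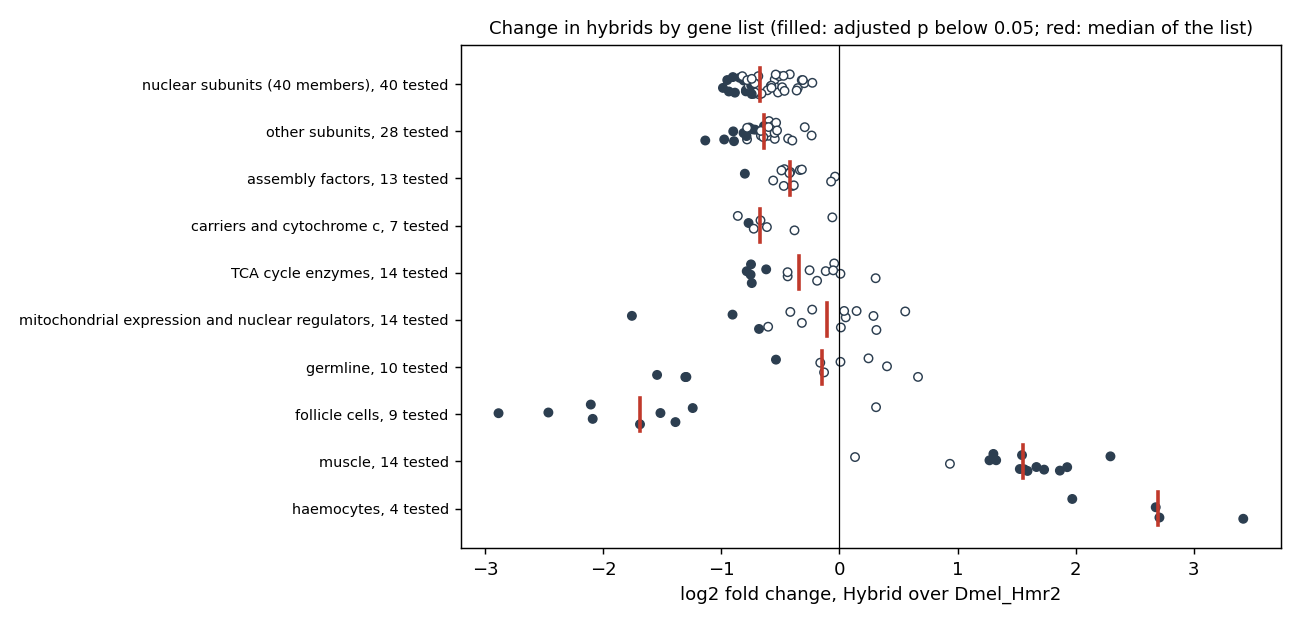
Log2 fold change, Hybrid over Dmel_Hmr2 (horizontal axis), of each tested gene in the members and in 9 other lists, with filled points at an adjusted p below 0.05 and red bars at the median of the list. The members (median -0.67) and the further subunits (median -0.64) lie wholly below 0, follicle cell markers lie mostly below 0, and muscle and haemocyte markers lie above 0.

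Several lists of cell type markers moved with the groups. The counts below stand against 2.99% of all tested genes called higher and 10.3% called lower at 2-fold. Without a minimum fold these shares were 6.8% and 15.0%. Of 14 tested muscle genes, 12 rose at 2-fold in Hybrid and none fell (median 1.56), and all 4 tested haemocyte genes rose (median 2.69). Of 9 tested follicle cell genes, 8 fell at 2-fold and none rose (median -1.69), and of 10 germline genes, 3 fell at 2-fold, 1 more fell by less and none rose (median -0.15). Of 5 fat body genes, 2 were tested and 1, FASN1, fell (-2.51 ± 0.17, adjusted p = 0.00041), while the larval serum and fat body genes Fbp1, Lsp2 and Lsp1beta were at or below 0.372 CPM in each library. How far each cell type added to the level of the members was not tested.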

How the data were processed

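Poly(A) RNA was sequenced by the authors with a directional kit. Reads were assigned by the authors with kallisto 0.50.0 to merged RefSeq transcripts of both species and summed to genes with tximport. No strand option is stated, so genes overlapping on opposite strands may share reads. The deposited values are estimated counts, which need not be whole, and the deposited TPM, which the authors set over transcripts of both species. The count column of Dmel_Hmr2 replicate 2 has a repeated header and was identified from its values. Columns of transcript length with no sample name (6) gave only a median length per gene.

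Estimated counts of D. melanogaster genes were rounded. The comparison of Hybrid with Dmel_Hmr2 used edgeR 4.0.16 (two-sided quasi-likelihood F test, glmQLFTest) under R 4.3.3, after filterByExpr with a minimum count of 10 and TMM scaling, with Benjamini-Hochberg adjustment over 8202 genes. Calls used an adjusted p below 0.05, with and without a minimum of 2-fold. Standard errors were derived from each fold change and its F statistic. Alternatives used other scalings and filters, a replicate block, each library left out, DESeq2 1.42.0, limma 3.58.1 on log2(TPM + 1) and log2(TPM + 0.1), and, added after the data were seen, subtraction of wrongly assigned reads and removal of the trend with length (local regression, span 0.3). Symbols and positions are from RefSeq and exons from Ensembl, both on the Release 6 assembly that the authors used. All 13973 identifiers matched. No sequences are shown.

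Chi-square per degree of freedom between replicates was 8.52 for Hybrid and 67.1 for Dmel_Hmr2, so libraries were kept separate. The p-values measure the spread between libraries, which may be technical. On simulated counts of 8202 genes, the edgeR step recovered 1.5% of genes changed by 0.5 on the log2 scale, 64.5% at 1 and 93.0% at 2, so a member that missed the threshold is not shown to be unchanged. The simulated counts held counting error and the spread between libraries estimated from these data. Genes were drawn independently, so a shared trend with transcript length is not covered. The members, lists, tests and alternatives were chosen with earlier results of these data known. Any member may be named. Values by library are given for members called at 2-fold, for the highest and lowest fold change of each complex, and for others where stated. Up to 3 genes called at 2-fold are named per comparison list, beside those stated.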

Additional observations from a re-analysis of the deposited data

How the results depend on the processing

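The median of the members stayed below 0, and no member was called higher, in each of the 15 alternatives. The counts called lower moved most. Without a minimum fold the count of 12 became 4 with D. melanogaster totals and no TMM, 40 with totals over both species, 28 with no filter on low counts, 24 with the DESeq2 Wald test, 39 with limma on log2(TPM + 1) and 39 on log2(TPM + 0.1), and 4 with the length trend removed. Over all tested genes these settings called 11.4%, 72.5%, 13.9%, 15.9%, 43.5%, 43.7% and 14.5% lower. Leaving out 1 library in turn gave 0 to 40. With all libraries kept, the 2-fold count of 0 became 40 with totals over both species, 1 with no filter and 1 with at least 10 counts in every library. It became 27 and 28 with limma on log2(TPM + 1) and log2(TPM + 0.1), and 1 with wrongly assigned reads subtracted. Over all tested genes these settings called 43.9%, 8.33%, 9.09%, 17.3%, 22.1% and 10.4% lower at 2-fold. Leaving out Dmel_Hmr2 replicate 2 or Hybrid replicate 1 also moved the 2-fold count of the members. The log2 fold change of levy was -1.31 without Dmel_Hmr2 replicate 2, and that of ox was -1.05 without Hybrid replicate 1.

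Totals over both species moved the median of all tested genes to -0.92 and that of the members to -1.58, with complexes I to V at -1.44, -1.36, -1.67, -1.52 and -1.65. Each hybrid library gives about as many counts to D. simulans genes, so this shift comes from the scaling itself, and relative to all genes the members lay at -0.66. With limma on log2(TPM + 1) the medians were -0.41 for all tested genes, -1.09 for the members, and -0.97, -0.89, -1.20, -1.09 and -1.19 for complexes I to V. With log2(TPM + 0.1) they were -0.46, -1.10, and -0.99, -0.90, -1.21, -1.09 and -1.20. With the length trend removed, all tested genes moved to 0.14, the members to -0.24, complex II to -0.047, III to -0.42, IV to -0.013 and V to -0.27. Of the 40 members, 7 were positive there, UQCR-Q (0.38), COX6B (0.19), cype (0.13), SdhD (0.10), COX7A (0.065), COX5B (0.061) and ND-20 (0.035), none of them called. Of all tested genes only 39.8% lay below 0 in that fit. Among the members, UQCR-Q and COX6B alone lay above the median of all tested genes, 0.14. Leaving out 1 library in turn gave medians of -0.96 to -0.36 for the members, -0.78 to -0.26 for complex I, -0.63 to -0.16 for II, -1.09 to -0.41 for III, -0.94 to -0.22 for IV and -1.03 to -0.41 for V. UQCR-Q ranged from -0.53 to 0.10, positive without Dmel_Hmr2 replicate 1, the lone reversal among 17 named members in these fits. In such fits the lone library of a group is assumed to vary like the other group. The cause of the remaining shifts was not tested.

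The labels do not say whether same-numbered libraries belong together. The correlation of deviations of same-numbered libraries was -0.00026, which cannot exclude that they were handled together. Replicate 1 minus replicate 2 decreased with transcript length in both groups (Spearman -0.24 in Hybrid and -0.46 in Dmel_Hmr2). With the replicate block, 26 members were called lower without a minimum fold, against 19.1% of all tested genes, and 0 at 2-fold.

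Each member had at least 261 estimated counts per library.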

Other observations

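Many subunit genes have a duplicate, often active in testis, whose symbol ends in L, L1 or L2. Of 25 such paralogs in the table, 2 passed the filter on low counts, and all 25 together summed to 7.82 and 9.54 CPM in Hybrid, against 5.66 and 4.84 CPM in Dmel_Hmr2. SdhBL, a duplicate of SdhB, was called higher at 2-fold, with 1.61 and 1.65 CPM in Hybrid, against 0.636 and 0.307 CPM in Dmel_Hmr2 (log2 fold change 1.73 ± 0.51, adjusted p = 0.04995). COX4L had 0.993 and 1.41 CPM in Hybrid, against 0.578 and 0.691 CPM in Dmel_Hmr2, and did not pass (adjusted p = 0.19).

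The members lie on all major chromosome arms. By arm, the median log2 fold change was -0.88 for 7 members on 2R, -0.74 for 6 on 3L, -0.61 for 6 on the X, -0.59 for 2 on chromosome 4, -0.58 for 6 on 2L and -0.58 for 13 on 3R. The median of all tested genes was between -0.04 and 0.04 on each of these. Within the ATP synthase, the TPM of ATPsynbeta over that of blw was 1.75 and 1.51 in Hybrid, against 2.24 and 1.88 in Dmel_Hmr2, with no overlap between the groups. For ATPsynC over blw the ratios were 3.99 and 4.25 in Hybrid, against 4.79 and 3.74 in Dmel_Hmr2, which overlap. ATPsynC over ATPsynbeta gave 2.29 and 2.80, against 2.14 and 1.98, with no overlap. In complex II, SdhA over SdhB gave 0.888 and 0.796, against 0.930 and 1.15, with no overlap. In complex III, UQCR-C1 over UQCR-C2 gave 1.65 and 2.04, against 1.75 and 1.71, which overlap. These ratios have no test. Ccdc56 and mtTFB1, which appear in the lists of assembly factors and of expression genes, hold identical values in every library and count once each in those lists.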
